A study of Mus musculus with 7 samples.

Results

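The genes described here encode 8 S100 calcium-binding proteins: S100a1, S100a4, S100a6, S100a8, S100a9, S100a10, S100a11 and S100a13. They were picked by symbol out of the 22680 genes in the deposited table, with earlier results of these data known, so their genotype and cell type differences are given as a description. RNA was sequenced from 7 libraries of blood-forming cells sorted from the fetal livers of C57BL/6 mice at 13.5 days post coitum. Of these, 3 were of wild-type LSK cells (lineage-negative cells carrying Sca-1 and c-Kit, the fraction that holds hematopoietic stem cells and multipotent progenitors), 3 were of Uhrf1-/- LSK cells, and 1 was of wild-type LK cells (c-Kit without Sca-1, progenitors further along in differentiation). Uhrf1 encodes a protein that brings the maintenance DNA methyltransferase to replicating DNA. Per the series design the cells came from 3 independent experiments. The sources used here do not give whether livers were pooled, which part of Uhrf1 was removed or in which cells. Nothing says that replicate libraries came from separate animals, so p-values measure only the spread between these libraries.

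S100 proteins are small proteins with a pair of EF-hand calcium-binding loops that work mostly as dimers. On binding calcium most of them open a surface that docks onto partner proteins such as annexins, myosin or cell surface receptors. S100a8 and S100a9 form the heterodimer calprotectin, which fills the cytoplasm of neutrophils and monocytes and acts as an alarm signal through Tlr4 and the receptor Ager once released. The other members are found in many cell types.

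All 8 members lie on chromosome 3. From S100a1 to S100a9 they share a stretch of 184.7 kb with S100a14, S100a16, S100a3, S100a2, S100a5 and S100a7a, and S100a11 and S100a10 stand 2825 kb further on, 28.8 kb apart. Positions here are those of RefSeq genes on GRCm38, the assembly called mm10 in the submitters' processing notes. S100a8 covers chr3:90669071-90670034 and S100a9 covers chr3:90692630-90695721. S100a1 (chr3:90511034-90514330) and S100a13 (chr3:90514233-90524581) overlap by 98 bases and are read in opposite directions. The sources used here do not give the strand setting of the authors' counting, and reads from that overlap cannot be assigned with certainty.

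Promoter windows from RefSeq (GRCm38.p6, 250 bases before to 50 bases after the annotated start, which is base 251) were present for 7 of the 8 members. The windows of S100a8, S100a9 and S100a4 are shown because they hold the letters searched for. Capitals mark TATAAA, the core of the TATA box, and TTGCNNAA, letters bound by C/EBP factors of the myeloid lineage, each searched on both strands and with no overlap between matches. The S100a8 window is chr3:90668821-90669120 on the plus strand, that of S100a9 is chr3:90695672-90695971 on the minus strand, and that of S100a4 is chr3:90603520-90603819 on the plus strand.
S100a8: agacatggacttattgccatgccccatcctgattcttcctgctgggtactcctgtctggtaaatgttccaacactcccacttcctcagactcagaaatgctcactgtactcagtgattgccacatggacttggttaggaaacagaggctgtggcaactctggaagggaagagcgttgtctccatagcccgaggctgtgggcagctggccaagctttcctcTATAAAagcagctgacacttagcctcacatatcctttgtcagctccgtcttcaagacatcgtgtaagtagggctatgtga
S100a9: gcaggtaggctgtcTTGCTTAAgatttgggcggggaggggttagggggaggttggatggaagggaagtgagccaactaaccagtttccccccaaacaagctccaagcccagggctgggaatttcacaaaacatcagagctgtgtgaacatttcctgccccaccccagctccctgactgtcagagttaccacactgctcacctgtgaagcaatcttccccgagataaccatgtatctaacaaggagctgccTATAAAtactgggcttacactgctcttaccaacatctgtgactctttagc
S100a4: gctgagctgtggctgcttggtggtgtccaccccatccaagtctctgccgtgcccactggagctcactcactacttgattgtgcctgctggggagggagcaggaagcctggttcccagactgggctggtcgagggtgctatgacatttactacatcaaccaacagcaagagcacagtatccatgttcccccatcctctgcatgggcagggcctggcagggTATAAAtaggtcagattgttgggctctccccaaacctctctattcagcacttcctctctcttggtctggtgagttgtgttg
TATAAA began 30 bases before the start of S100a8 and 31 bases before that of S100a4. In S100a9 it began at the annotated start itself, and TTGCTTAA stood 236 bases before the start. Of all 32851 windows, 13.6% held TATAAA, 10.8% held TTGCNNAA, and 1.99% held TATAAA on the coding strand from 20 to 40 bases before the start. These letters are a description of the windows and not of binding.

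The windows of S100a13 (chr3:90514185-90514484, plus strand) and S100a11 (chr3:93520246-93520545, plus strand) are shown for their CpG sites, the dinucleotides at which Uhrf1 acts, which are in capitals. Beside them is the first window of S100a16 (chr3:90537004-90537303, plus strand), an S100 gene outside the member list that is described with the genotype comparison.
S100a13: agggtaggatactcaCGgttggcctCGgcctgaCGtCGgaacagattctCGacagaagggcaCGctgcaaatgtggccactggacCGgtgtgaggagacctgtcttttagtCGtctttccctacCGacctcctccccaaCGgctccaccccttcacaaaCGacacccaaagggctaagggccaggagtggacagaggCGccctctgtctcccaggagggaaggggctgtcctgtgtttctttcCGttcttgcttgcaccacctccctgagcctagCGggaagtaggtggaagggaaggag
S100a11: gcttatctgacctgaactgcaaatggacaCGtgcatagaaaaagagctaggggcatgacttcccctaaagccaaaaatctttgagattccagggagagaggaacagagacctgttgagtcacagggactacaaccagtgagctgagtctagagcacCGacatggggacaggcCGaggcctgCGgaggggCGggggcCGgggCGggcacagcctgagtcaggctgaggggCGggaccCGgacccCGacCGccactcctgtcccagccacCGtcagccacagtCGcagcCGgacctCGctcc
S100a16: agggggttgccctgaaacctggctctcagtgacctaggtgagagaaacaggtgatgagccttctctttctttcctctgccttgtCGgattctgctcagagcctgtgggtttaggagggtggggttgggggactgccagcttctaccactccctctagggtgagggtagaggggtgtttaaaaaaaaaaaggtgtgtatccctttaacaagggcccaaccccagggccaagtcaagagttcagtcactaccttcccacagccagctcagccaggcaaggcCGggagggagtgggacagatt
These windows held 14, 15 and 2 CpG sites, against a median of 7 over all windows. S100a4 and S100a9 held 2, S100a8 held 4, S100a6 held 6 and S100a1 held 11. The annotated starts of S100a1 (90514330, minus strand) and S100a13 (90514435, plus strand) used for these windows have 104 bases between them and face away from each other, and 204 bases belong to both windows. The gene record of S100a13 begins 202 bases before this start, which gives the overlap of the gene records described above. Methylation was not measured.

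Levels are given as FPKM, fragments scaled to transcript length and library depth, as deposited by the authors. This allows genes to be set side by side, within the limit for short genes given below. S100a11 was the most abundant member in wild-type LSK cells at 933 ± 616 FPKM (SD, n = 3), followed by S100a10 at 413 ± 238 FPKM and S100a13 at 138 ± 79.9 FPKM. S100a1 (43.9 ± 21.2), S100a8 (33.0 ± 30.4), S100a6 (23.4 ± 13), S100a4 (19.7 ± 19.5) and S100a9 (15.7 ± 18.7 FPKM) made up the lower tier. The ranges of S100a10 and S100a13 did not overlap across the wild-type LSK libraries, while each of the other neighbours in this order overlapped. Within single libraries the order at the top was steadier, since S100a11 stood at 1.79 to 2.39 times S100a10 and S100a13 at 2.11 to 3.5 times S100a1 in all 7 libraries. The estimated reads behind a value in the LSK libraries were at least 2836 for S100a10 and 4320 for S100a11, and as few as 8 for S100a8 and 11 for S100a9.

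**Figure D1:**
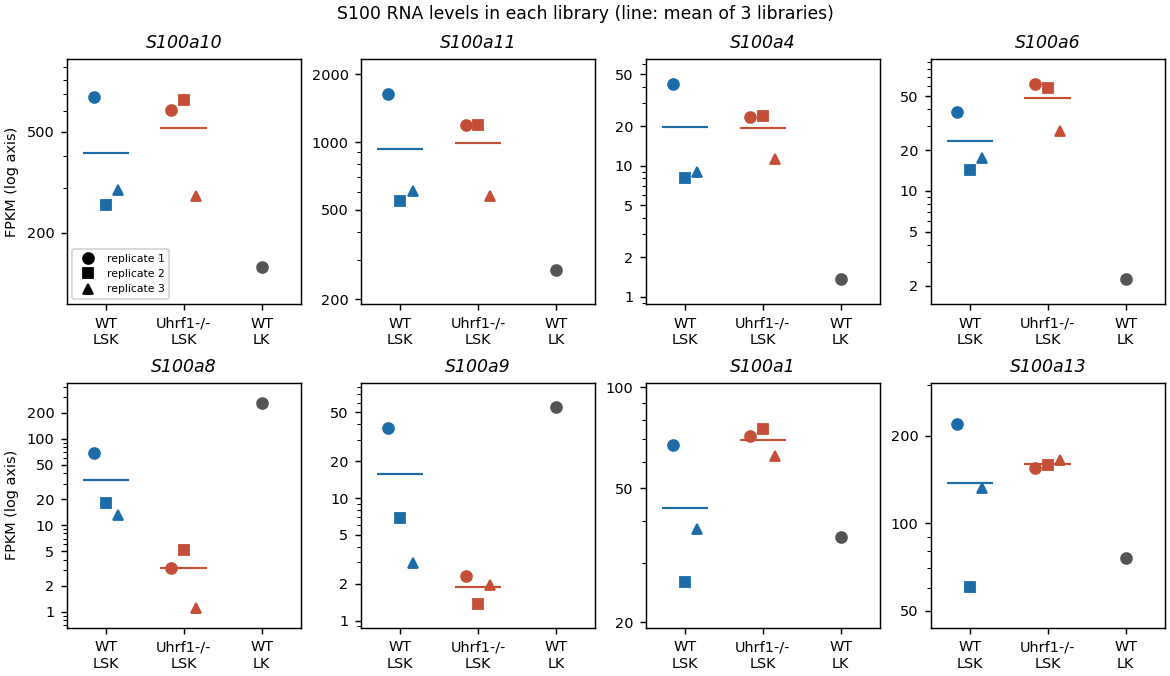
FPKM (log axis, a separate range in each panel) of the 8 S100 genes in wild-type LSK, Uhrf1-/- LSK and wild-type LK libraries, with marker shape for the replicate number and a line at the mean of 3 libraries. S100a8 and S100a9 are lowest in Uhrf1-/- LSK cells and highest in the LK library, and S100a4, S100a6, S100a10 and S100a11 are lowest in the LK library.

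The library totals were 15556959 to 21017402 scaled counts, or about 16808523 to 25803039 estimated reads. Uhrf1 stood at 63.0, 66.8 and 113 FPKM in wild-type LSK replicates 1, 2 and 3 and at 10.2, 8.78 and 18.6 FPKM in the Uhrf1-/- replicates. Ly6a, which encodes Sca-1, stood at 26.4 to 96.4 FPKM in the LSK libraries and at 0.321 FPKM in the LK library. Its genotype ranges overlapped. Kit, Cd34 and Flt3 were lower in every Uhrf1-/- LSK library than in any wild-type one, as 6.16% of all genes tested were. Flt3 had 102, 69.5 and 49.8 FPKM in the wild-type LSK replicates and 29.1, 28.1 and 10.6 FPKM in the Uhrf1-/- ones. It passed with the replicate block (limma adjusted p = 0.000442) and not without it (0.175). Kit and Cd34 passed in neither fit. The 5 endothelial, 5 stromal and 5 hepatoblast markers summed to at most 15.9, 3.19 and 23.4 FPKM in any library. Short genes differed between the LSK libraries as a class. Among the 1061 tested genes with the shortest length implied by the deposited values, the median deviation from the gene's own mean on the log2(FPKM + 1) scale was 0.51, -0.71 and -0.25 in wild-type replicates 1, 2 and 3 and 0.30, 0.31 and -0.06 in the Uhrf1-/- replicates. All 8 members are among these short genes.

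S100a8 and S100a9, the calprotectin subunits, had the widest spread of the members over the LSK libraries, with the highest value 61.5 and 27.1 times the lowest against 2.67 to 5.25 times for the others. Wild-type LSK replicates 1, 2 and 3 had 68.0, 17.9 and 13.1 FPKM of S100a8, the Uhrf1-/- replicates 3.18, 5.22 and 1.11 FPKM and the LK library 260.3 FPKM. Every wild-type value was above every Uhrf1-/- value, and the LK library was above all. The Uhrf1-/- values rested on 19, 32 and 8 estimated reads, and the lowest, 1.11 FPKM, had a 95% exact Poisson interval of 0.478 to 2.18 FPKM, which covers counting error only. The Uhrf1-/- mean of 3.17 ± 2.06 FPKM was 10.4 times lower than the wild-type mean of 33.0 ± 30.4 FPKM (SD, n = 3 each), and the difference on the log2(FPKM + 1) scale was -2.80 (SE 0.64). By replicate number the difference was -4.04, -1.60 and -2.74. Without wild-type replicate 1, the library with the highest value, it was -2.10.

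S100a9 stood at 37.2, 6.87 and 2.96 FPKM in wild-type LSK replicates 1, 2 and 3, at 2.31, 1.37 and 1.94 FPKM in the Uhrf1-/- replicates and at 55.8 FPKM in the LK library. The genotype ranges again did not overlap, but wild-type replicate 3 lay close to the Uhrf1-/- libraries: its 36 estimated reads gave an interval of 2.07 to 4.10 FPKM, and the 18 reads of Uhrf1-/- replicate 1 one of 1.37 to 3.65 FPKM. The log2 difference was -1.90 (SE 0.77), and by replicate number it was -3.53, -1.73 and -0.43. Without wild-type replicate 1 it was -0.97. Over all genes tested, 10.8% had genotype ranges that did not overlap, 4.61% with Uhrf1-/- cells higher and 6.16% lower. Among the 1061 short genes, 1.32% were lower without overlap. The 2 members without overlap, S100a8 and S100a9, were both lower.

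The ratio of S100a8 to S100a9 FPKM was not fixed. It was 1.83, 2.61 and 4.43 in wild-type LSK replicates 1, 2 and 3, 1.38, 3.80 and 0.571 in the Uhrf1-/- replicates and 4.66 in the LK library. S100a9 thus exceeded S100a8 in 1 library, Uhrf1-/- replicate 3, where the S100a8 value rests on 8 reads.

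The genes whose profile over the 7 libraries was most like that of S100a9 were BC100530 (Pearson r = 0.986 on the log2 scale), Fcnb (r = 0.962) and Stfa1 (r = 0.960). BC100530 and Stfa1 belong to the stefin A family of cysteine protease inhibitors, a set of near-identical copies whose reads the counting may divide in ways not known here, and Fcnb encodes the myeloid lectin ficolin B. BC100530 stood at 43.5, 13.9 and 2.51 FPKM in wild-type LSK replicates, at 2.78, 1.71 and 2.82 FPKM in Uhrf1-/- replicates and at 98.2 FPKM in the LK library. Closest to S100a8 were Slpi (r = 0.954), a protease inhibitor of leukocytes, Bcl11a (r = 0.952), a transcription factor of lymphoid and erythroid cells, and Zfp324 (r = 0.946). S100a8 and S100a9 had an r of 0.94 with each other. These r values describe 7 libraries, of which the LK library is far from the others, and the genes were picked out of 10649 compared.

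**Figure D2:**
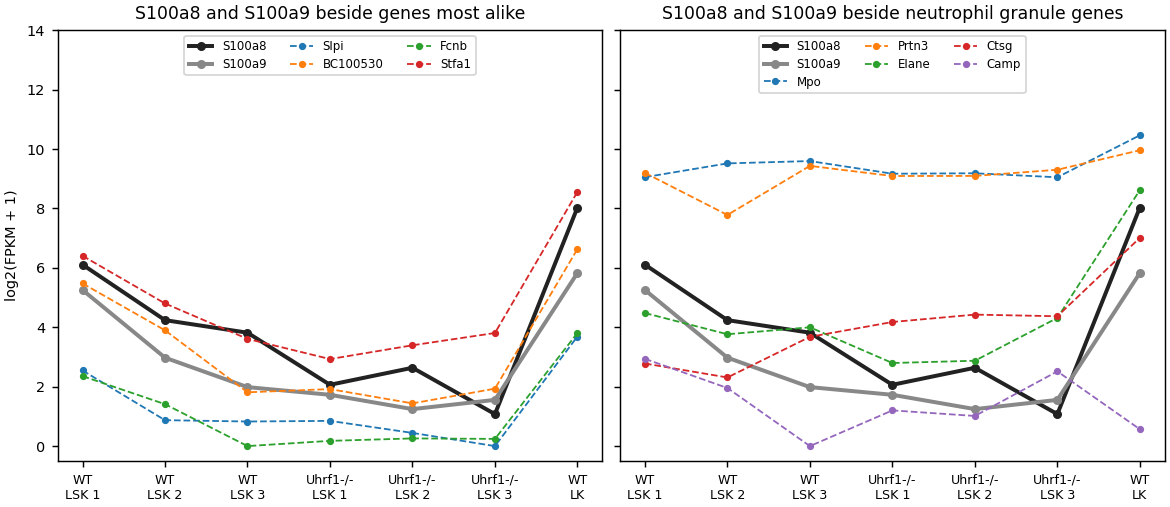
log2(FPKM + 1) of S100a8 and S100a9 in the 7 libraries beside genes with a like profile (left) and beside neutrophil granule genes (right); the lines join libraries only to guide the eye. Stfa1, BC100530, Fcnb and Slpi are highest in the LK library, as S100a8 and S100a9 are, and Mpo and Prtn3 stand between 219 and 773 FPKM in the LSK libraries of both genotypes.

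Granule genes and other genes of neutrophils and their precursors were measured beside the calprotectin pair. Mpo, the myeloperoxidase gene, stood at 530.4, 732 and 773 FPKM in wild-type LSK replicates 1, 2 and 3 and at 575, 581 and 529 FPKM in the Uhrf1-/- replicates. Elane, neutrophil elastase, had 21.3, 12.6 and 15.0 FPKM in the wild-type LSK replicates, 5.95, 6.33 and 18.9 FPKM in the Uhrf1-/- ones and 392 FPKM in the LK library. Neither passed in limma (adjusted p = 0.944 for Mpo and 0.942 for Elane). Other genes of the list were higher in all Uhrf1-/- LSK libraries than in any wild-type LSK library, as 4.61% of all genes tested were. Ctsg, cathepsin G, had 5.87, 3.96 and 11.8 FPKM in the wild-type replicates and 17.1, 20.5 and 19.7 FPKM in the Uhrf1-/- ones, and it rose with the replicate block (limma adjusted p = 0.00677) but did not pass without it (0.191). Ms4a3 (7.74, 4.77 and 6.86 against 10.9, 14.8 and 8.71 FPKM) and Cxcr2 (35.1, 6.56 and 50.4 against 54.2, 51.2 and 101 FPKM) did not pass in either fit. Of the 8 neutrophil genes tested, 4 had a positive log2 difference. Ctsg was the 1 called, with the block only, where 2.06% of all genes were called (0.17% without it). The 13 genes of the neutrophil list summed to 1015 to 1566 FPKM in wild-type and 1228 to 1330.4 FPKM in Uhrf1-/- LSK libraries and to 3192 FPKM in the LK library. Of its genes of mature neutrophils, Ngp and Retnlg were at most 0.145 and 0.0824 FPKM and Mmp8 was listed at 0 in all LSK libraries, while Camp reached 6.66 FPKM in wild-type replicate 1. Ltf reached 1.8 FPKM in wild-type replicate 2. Lcn2 had 0.345, 0.0579 and 0.464 FPKM in the wild-type LSK replicates and was listed at 0 in the Uhrf1-/- ones. Ltf and Lcn2 were too low to be tested. The 7 measured macrophage markers summed to 159, 86.8 and 11.2 FPKM in wild-type LSK replicates 1, 2 and 3, with 39.2, 40.5 and 4.87 FPKM for the Uhrf1-/- libraries and 10.3 FPKM for LK cells. Among the LSK libraries this sum, most of it from C1qa, C1qb and C1qc in wild-type replicates 1 and 2, was highest in wild-type replicate 1, as S100a8 and S100a9 were. Of the 4 macrophage markers tested, 0 had a positive log2 difference and the median was -0.95. Csf1r was the 1 that passed, beside 0.17% of all genes without the block and 2.06% with it. C1qa, C1qb and C1qc differed by -1.03, -0.87 and -0.80 with SE of 1.53, 1.66 and 1.98. Their genotype ranges overlapped, so the signs of these 3 say little. Csf1r, the receptor for macrophage colony-stimulating factor, had 9.51, 14 and 10 FPKM in the wild-type LSK replicates, 3.33, 2.55 and 2.55 FPKM in the Uhrf1-/- ones and 9.19 FPKM in the LK library. It fell by 1.67 on the log2 scale (limma adjusted p = 0.0429, with the replicate block 0.000633). The part of neutrophil and macrophage genes in these values was not tested. In sorted populations fewer cells with a transcript and less transcript per cell cannot be told apart.

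S100a10 and S100a11 are partners of annexins. S100a10 is unusual in the family in holding its open form without calcium, and it forms a complex with annexin A2 at the plasma membrane. S100a10 stood at 687, 257 and 294 FPKM in wild-type LSK replicates 1, 2 and 3, at 606, 664 and 280 FPKM in the Uhrf1-/- replicates and at 147 FPKM in the LK library. Wild-type replicate 1 and Uhrf1-/- replicates 1 and 2 were high, the other LSK libraries were low, and the genotypes overlapped. The log2 difference was 0.37 (SE 0.49), and by replicate number it was -0.18, 1.36 and -0.07.

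S100a11, which binds annexin A1, followed the same course at a higher level. It stood at 1644, 547 and 609 FPKM in wild-type LSK replicates 1, 2 and 3, at 1197, 1190.4 and 576 FPKM in the Uhrf1-/- replicates and at 271 FPKM in the LK library. The log2 difference between genotypes was 0.19 (SE 0.53). S100a11 was the gene most like S100a10 of all genes compared (r = 0.988), before 2210013O21Rik (r = 0.988) and Pqbp1 (r = 0.987), and the genes most like S100a11 were Nudt16 (r = 0.997), Cyba (r = 0.994), a subunit of the phagocyte oxidase, and Serf1 (r = 0.991).

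The annexin genes were far lower. Anxa2 stood at 3.78, 5.61 and 4.30 FPKM in wild-type LSK replicates and at 7.88, 8.05 and 9.01 FPKM in the Uhrf1-/- replicates, with 13.4 FPKM in the LK library. S100a10 FPKM thus exceeded Anxa2 FPKM by 31.1 to 182 times in the LSK libraries and by 10.9 times in the LK library. S100a10 is among the short genes, whose FPKM differed between libraries as a class. The ratio was 182 in wild-type replicate 1 and 45.8 in wild-type replicate 2. The part of gene length in this ratio was not tested. The genotype ranges of Anxa2 did not overlap, with Uhrf1-/- cells higher, as for 4.61% of all genes tested. Its log2 difference of 0.75 (SE 0.26) did not pass (limma adjusted p = 0.572, with the replicate block 0.145). Anxa1 had 32.3 ± 6.27 FPKM in the wild type against 20.9 ± 10.5 FPKM with Uhrf1 deleted (SD, n = 3 each; limma adjusted p = 0.942).

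S100a4 and S100a6 lie next to S100a5 and are linked to cell motility and proliferation. S100a4, which binds non-muscle myosin, stood at 42.2, 8.03 and 8.88 FPKM in wild-type LSK replicates 1, 2 and 3, at 23.5, 23.8 and 11.2 FPKM in the Uhrf1-/- replicates and at 1.35 FPKM in the LK library. The means were alike, 19.7 ± 19.5 and 19.5 ± 7.18 FPKM (SD, n = 3 each), and the log2 difference was 0.32 (SE 0.61), with -0.82, 1.46 and 0.31 by replicate number. Its most similar genes were Lst1 (r = 0.998), Ppdpf (r = 0.997) and 2210404O07Rik (r = 0.997). Lst1, a leukocyte gene, had 921, 208 and 223 FPKM in the wild-type LSK replicates, 616, 566 and 279 FPKM in the Uhrf1-/- ones and 62.1 FPKM in the LK library.

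S100a6, or calcyclin, binds Cacybp and annexins. It stood at 38.4, 14.4 and 17.4 FPKM in wild-type LSK replicates 1, 2 and 3, at 61.4, 57.4 and 27.8 FPKM in the Uhrf1-/- replicates and at 2.24 FPKM in the LK library. In each replicate number the Uhrf1-/- library was above the wild-type library, by 0.67, 1.92 and 0.64 on the log2 scale, although the ranges overlapped. The log2 difference was 1.08 (SE 0.41). When the median deviation of genes of like length was taken off each library, a calculation chosen after seeing the data, it was 0.74 (SE 0.24). Megakaryocyte markers moved in the same direction: the 5 genes (Pf4, Itga2b, Gp9, Gp5 and Treml1) summed to 108, 54.1 and 43.9 FPKM in wild-type LSK replicates, with 184, 163 and 131 FPKM for the Uhrf1-/- libraries and 24.5 FPKM for LK cells. Of these 5, 2 passed in limma as higher without pairing and 4 with the replicate block, where 0.113% and 1.23% of all genes did. Pf4 overlapped between genotypes and passed in neither fit. The erythroid markers Epor and Klf1 were also higher in every Uhrf1-/- LSK library than in any wild-type one, as 4.61% of all genes tested were. Hba-a1 overlapped. The 5 erythroid markers summed to 116, 31 and 8.68 FPKM in wild-type LSK replicates, 54, 83.2 and 60.3 FPKM in Uhrf1-/- ones and 1059 FPKM in the LK library. The part of megakaryocyte and erythroid genes in the S100a6 values was not tested. Closest to S100a6 over the 7 libraries were Mllt4 (r = 0.990), Tmem37 (r = 0.988) and Dtnbp1 (r = 0.988).

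S100a1, best known from heart muscle where it acts on calcium handling, and S100a13, which takes part in the release of proteins that lack a signal peptide, sit head to head on the chromosome. S100a1 stood at 67.4, 26.4 and 37.8 FPKM in wild-type LSK replicates 1, 2 and 3, at 71.8, 75.3 and 62.3 FPKM in the Uhrf1-/- replicates and at 35.8 FPKM in the LK library. Its log2 difference was 0.76 (SE 0.34), 0.09, 1.48 and 0.71 by replicate number. S100a13 stood at 220.1, 60.5 and 132 FPKM in wild-type LSK replicates, at 155, 159 and 165 FPKM in the Uhrf1-/- replicates and at 75.7 FPKM in the LK library. The Uhrf1-/- values of S100a13 were close together (159.9 ± 4.93 FPKM, SD, n = 3) and fell inside the wild-type range, with a log2 difference of 0.40 (SE 0.42). Most like S100a1 were Ntmt1 (r = 0.990), Pmf1 (r = 0.987) and U2af1l4 (r = 0.983), and most like S100a13 were Pnkd (r = 0.999), Hsd17b11 (r = 0.993) and Hist1h2bj (r = 0.993).

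The 6 members other than S100a8 and S100a9 shared features over the LSK libraries. Wild-type replicate 2 was the lowest LSK library for all 6, as it was for 23.9% of all genes tested and for 63.6% of the 1061 short genes. Wild-type replicate 1 and Uhrf1-/- replicates 1 and 2 were the highest LSK libraries for 5 of them, S100a13 being the exception, as they were for 15.4% of all genes and 57% of the short genes. Ribosomal protein genes, which are also short, took 4.75% of the scaled counts in wild-type replicate 2 and 10.6% to 15.7% in the other libraries. After the median of genes of like length was taken off, the log2 difference between genotypes was 0.43 for S100a1, -0.01 for S100a4, 0.04 for S100a10, -0.14 for S100a11 and 0.07 for S100a13, while that of S100a8 was -3.13 (SE 0.43) and that of S100a9 -2.23 (SE 0.56). Over the 7 libraries the pairwise r among the 6 genes lay between 0.73 and 0.99, and that of S100a8 or S100a9 with any of them between -0.72 and -0.25. Over the 6 LSK libraries alone the latter lay between -0.30 and 0.45.

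**Figure D3:**
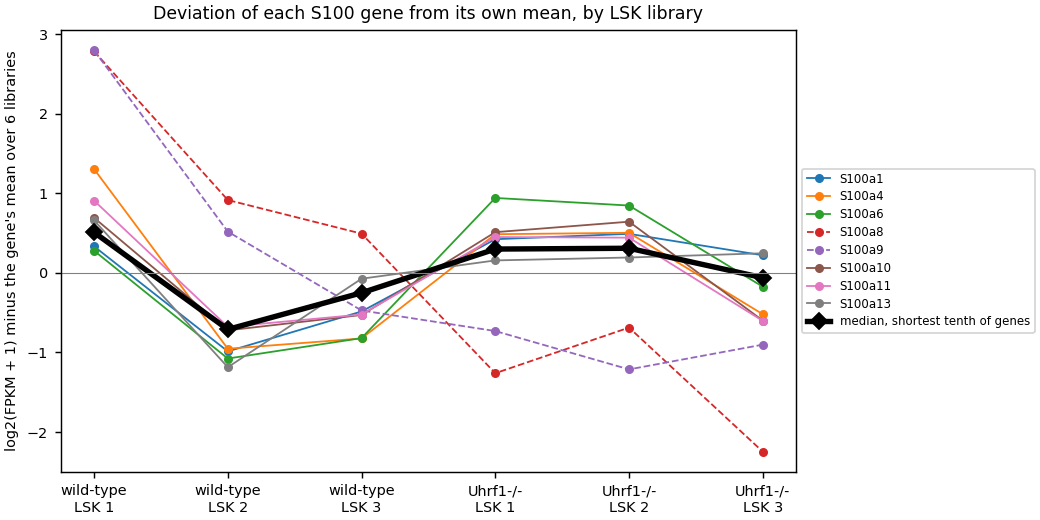
Deviation of log2(FPKM + 1) of each S100 gene from its own mean over the 6 LSK libraries, with the median of the 1061 short genes in black; the lines join libraries only to guide the eye. S100a1, S100a4, S100a6, S100a10, S100a11 and S100a13 are lower in wild-type replicate 2 than in any other LSK library, as the black line is, and S100a1 and S100a13 lie above that line in Uhrf1-/- replicate 3, and S100a8 and S100a9 (dashed) are highest in wild-type replicate 1 and below their mean in the 3 Uhrf1-/- libraries.

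Against the genotype labels, 6 members had a positive and 2 a negative log2 difference, with a median of 0.34 beside -0.03 over the 10608 genes tested. In the limma fit without pairing, 0 of the 8 members passed an adjusted p of 0.05, where 0.17% of all genes passed, 0.113% higher and 0.0566% lower. At an unadjusted p under 0.05 there were 4 members, beside 5.57% of all genes. With the replicate number as a block, S100a8 (lower) and S100a6 (higher) passed, where 2.06% of all genes did, 1.23% higher and 0.83% lower. S100a6 did not pass after the values were centred on genes of like length. S100a8 then passed with and without the block, where 200 and 30 of the 10608 genes did. Without the libraries of replicate number 2 the blocked fit called S100a8 but not S100a6, and 20 of 10610 genes in all. By replicate number, 2 members (S100a1 and S100a6) were higher and 2 (S100a8 and S100a9) lower in all 3 pairs, beside 13.9% and 18.3% of all genes. These counts describe genes chosen with the comparison in view, so a pass is a description and not a test of them.

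**Figure D4:**
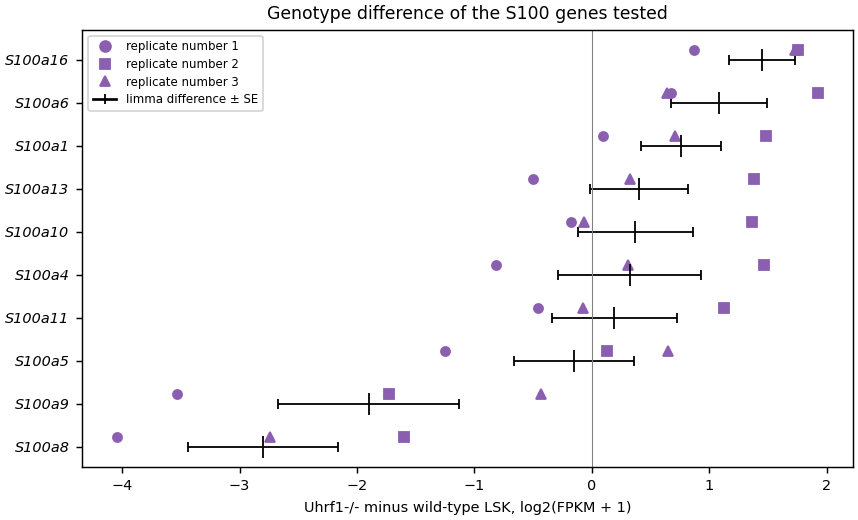
Uhrf1-/- minus wild-type LSK difference on the log2(FPKM + 1) scale for the 10 S100 genes tested, as the limma difference with its SE (black) and as the difference between libraries of the same replicate number (purple). S100a8 and S100a9 lie below 0 and S100a16, S100a6 and S100a1 above 0 at every replicate number, whereas S100a4, S100a5, S100a10, S100a11 and S100a13 change sign.

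Of the 8 other S100 genes listed, S100a16 and S100a5 reached a mean of 1 FPKM in LSK cells. S100a16, a broadly expressed family member, stood at 9.66, 5.76 and 5.34 FPKM in wild-type LSK replicates 1, 2 and 3, at 18.5, 21.8 and 20.1 FPKM in the Uhrf1-/- replicates and at 0.145 FPKM in the LK library. Its genotype ranges did not overlap, with means of 6.92 ± 2.38 and 20.1 ± 1.64 FPKM (SD, n = 3 each). Of all genes tested, 4.61% were higher without overlap. The log2 difference was 1.45 (SE 0.28), higher in 3 of 3 pairs, as for 13.9% of all genes. It did not pass without pairing (limma adjusted p = 0.0894) but rose with the replicate block (limma adjusted p = 0.00304), where 1.23% of all genes passed as higher. Adjusted p-values without the block ranged from 0.0599 to 0.345 over the alternatives, and the blocked call was lost without replicate number 2 (limma adjusted p = 0.184). S100a16 lies between S100a13 and S100a4 on chromosome 3. It is not among the 1061 short genes, as the members are, but it is close to them, at percentile 13.3 of the length order. After the median of genes of like length was taken off, its log2 difference was 1.3 (SE 0.22), against 1.45 before. The summed megakaryocyte markers given above, and Epor and Klf1 of the erythroid list, were higher in the same LSK libraries. Hba-a1 of that list overlapped between genotypes, and the erythroid sum was highest among LSK libraries in wild-type replicate 1, at 116 FPKM. In the LK library Epor and Klf1 stood at 67.4 and 307 FPKM, where S100a16 had 0.145 FPKM. The part of these genes in the S100a16 values was not tested.

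S100a5 had 10.2, 1.72 and 3.42 FPKM in the wild-type LSK replicates and 3.70, 1.99 and 5.96 FPKM in the Uhrf1-/- ones, with a log2 difference of -0.15 (SE 0.51, limma adjusted p = 0.976). S100a7a and S100z were listed at 0 in every library, and S100a3, S100a14, S100b and S100g did not exceed 0.541 FPKM in any. Thus 0 of these 2 tested genes passed in limma without pairing, beside 0.17% of all genes. At an unadjusted p under 0.05 there was 1, beside 5.57% of all genes. With the block S100a16 alone passed, beside 2.06% of all genes.

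**Figure D5:**
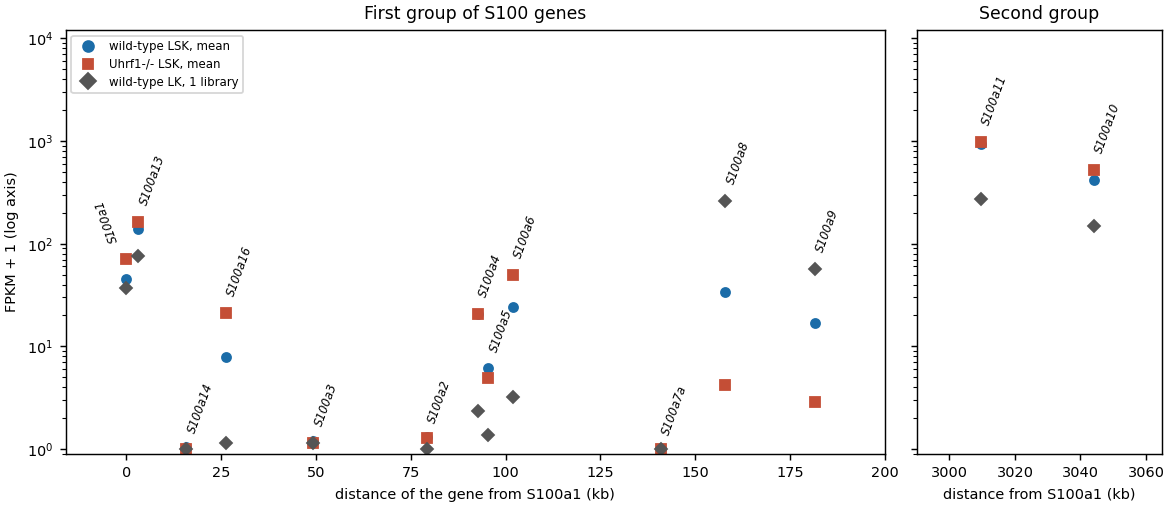
Level (FPKM + 1, log axis) of the S100 genes of chromosome 3 against the distance of each gene from S100a1, as the mean of 3 wild-type LSK libraries, the mean of 3 Uhrf1-/- LSK libraries and the single LK library. S100a14, S100a3, S100a2 and S100a7a lie near the bottom among expressed neighbours, and S100a8 and S100a9 have the LK library on top.

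The LK library was set beside the same wild-type LSK libraries, without a test since it has no replicate. It lay below all 3 for S100a4, S100a6, S100a10 and S100a11, 4 of the 8 members, as it did for 31.1% of all genes tested and of the short genes alike. The wild-type LSK mean was 14.6 times the LK value for S100a4, 10.5 times for S100a6, 3.45 times for S100a11 and 2.81 times for S100a10. The LK values of S100a4 and S100a6 rested on 13 and 25 estimated reads, with intervals of 0.717 to 2.30 and 1.45 to 3.30 FPKM. The S100a4 mean also leaned on wild-type replicate 1, at 42.2 FPKM beside 8.03 and 8.88 FPKM in replicates 2 and 3. The LK library lay above all 3 for S100a8 and S100a9, as it did for 32.5% of all genes and 16.9% of the short genes, at 7.88 and 3.56 times the LSK mean. For S100a1 and S100a13 it lay above wild-type replicate 2 and below the other replicates, so that without wild-type replicate 2 it lay below for 6 members. The 0.145 FPKM of S100a16 in the LK library rested on 3 estimated reads, with an interval of 0.0299 to 0.424 FPKM. The members that were high in LK cells were those low in Uhrf1-/- LSK cells, but both comparisons use the same wild-type libraries.

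Of the 14 genes listed as receptors and binding partners of S100 proteins, 8 reached a mean of 1 FPKM in LSK cells and were tested. In limma 0 passed, with 1 at an unadjusted p under 0.05, beside 5.57% of all genes. With the replicate block 0 passed, with 3 at an unadjusted p under 0.05, beside 12% of all genes. Their median log2 difference was 0.05. Bsg, a receptor of S100a9, was the most abundant, with a wild-type mean of 416 ± 149 FPKM and a Uhrf1-/- mean of 503 ± 131 FPKM (SD, n = 3 each; limma adjusted p = 0.943). Cacybp, the S100a6 partner, stood at 137 ± 36.8 and 129 ± 36.6 FPKM, Anxa6 at 46.2 ± 13.5 and 42.6 ± 8.62 FPKM. The calprotectin receptors were low: Tlr4 stood at 0.135 to 0.753 FPKM in the LSK libraries and Ager at 0.163 to 5.86 FPKM. Fgf1, a cargo of S100a13, was listed at 0 in every library.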

How the data were processed

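RNA was measured in 7 libraries, grouped by sample title. The members and gene lists were chosen with earlier results of these data known. Each library has 2 values per gene. The column called count per the file headers is not whole and was used as a scaled count signal: of its nonzero values under 100 steps, 98.2% to 98.6% were whole multiples of 1 step per library (tolerance 0.02 steps), and dividing by the step gave estimated reads. The other, deposited by the authors, is FPKM. The tools TopHat2 2.0.9, Cufflinks 2.1.1 and mm10 are named per the submitters' processing notes, while the sources used here give no annotation, strand or counting options. Genes averaging 1 FPKM or more over the 6 LSK libraries were tested using limma 3.58.1 under R 4.3.3 (trend, robust, two-sided, Benjamini-Hochberg over all genes tested, threshold 0.05) on log2(FPKM + 1), a scale that shrinks the changes of low genes. The length order of genes came from the ratio of scaled count to FPKM. As a pairing check, deviations from group means had r of 0.349, 0.332 and 0.645 between libraries of the same replicate number (other numbers -0.591 to 0.213). The numbers were then read as pairs. Between replicates 1 and 2 the crossed r values, 0.213 and 0.159, were also positive, so mainly replicate 3 stood apart. For the short genes the median deviations of replicate number 2 differed, at -0.71 in the wild-type and 0.31 in the Uhrf1-/- library. The pairing is read from the same values that were then tested, not from the labels. Calls with the block depend on it. Named genes were all members, other S100 genes past this filter, partner genes called in either fit or among the 4 most abundant, and for each member the 3 genes with the highest r over the 7 libraries among genes averaging 1 FPKM or more. Some further genes were named after their values were seen: Anxa2, Ager, Tlr4, Fgf1, Uhrf1, Ly6a and the marker genes. Alternatives were the pseudocount, the filter, the scaling, the count values, the block and left-out libraries.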

Additional observations from a re-analysis of the deposited data

How the results depend on the processing

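Without the filter on low values 0 of 16724 genes passed in limma (967 at an unadjusted p under 0.05), against 18 of 10608 with it. Leaving out any 1 library gave 0 to 4 called genes, with 0 without wild-type replicate 1 or 2 (1504 and 470 at an unadjusted limma p under 0.05). The replicate block raised the count to 219 of 10608. The blocked fit without pair 1, 2 or 3 gave 667 of 10648, 20 of 10610 and 196 of 10528. Centring on genes of like length, added after seeing the data, gave 30 of 10608 genes, and 200 with the block. Of the 8 S100 members, 2 passed with the block, 4, 1 and 3 in the blocked fits without pairs 1, 2 and 3, and 1 after length centring with or without the block. The members were chosen with the comparison in view, so their passes are a description and not a test. S100a16 was the 1 other S100 gene that passed with the block, without pair 1 or 3, and after length centring with the block. Of the partner genes, 2 (Ager higher, Anxa1 lower) passed in the blocked fit without pair 1. The block changed no other call among these genes. Fits without a pair leave few libraries to estimate the spread, and the causes of these shifts were not tested. The log2 differences of S100a1, S100a6, S100a8, S100a9 and S100a16 kept their sign under all 16 alternatives, whereas S100a4 and S100a11 kept it under 11, S100a13 under 14 and S100a10 under 15. S100a8 ranged from -3.39 to -2.10 and S100a9 from -2.63 to -0.97. The counts of 8 and 11 reads limit what can be said of the lowest S100a8 and S100a9 values.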

Other observations

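S100pbp, which encodes a nuclear protein that binds another S100 protein, was measured as well. It stood at 1.46, 2.6 and 2.1 FPKM in wild-type LSK replicates 1, 2 and 3, at 0.844, 0.858 and 1.55 FPKM in the Uhrf1-/- replicates and at 1.81 FPKM in the LK library. The log2 difference was -0.55 (SE 0.26), lower in 3 of 3 pairs, as for 18.3% of all genes tested. It did not pass (limma adjusted p = 0.928, with the replicate block 0.352). S100a2, which the listed S100 genes do not include, reached at most 0.856 FPKM, in Uhrf1-/- replicate 3. Summed over the 8 members, FPKM was 2803, 939 and 1116 in wild-type LSK replicates 1, 2 and 3, 2121, 2176 and 1126 in the Uhrf1-/- replicates and 849 in the LK library. The FPKM of all genes together also differed between libraries. It was 1128572, 570509 and 851271 in wild-type LSK replicates 1, 2 and 3, 986468, 994973 and 943583 in the Uhrf1-/- replicates and 921942 in the LK library. The part of these totals in the S100 sums was not tested.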
